A study of Caenorhabditis elegans with 10 samples.

Results

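The genes described here are 9 cytoskeleton genes of Caenorhabditis elegans, of 46536 genes in the authors' table. They are the 5 actin genes act-1 to act-5, the alpha-tubulin genes tba-1 and tba-2, and the beta-tubulin genes tbb-1 and tbb-2, each taken by its name in the table with 1 row kept per gene identifier. RNA came from dissected germline tumours of adults of day 1, raised at 25 °C for 48 h after synchronisation as L1 larvae. All worms, of the Bristol strain, carried gld-2(q497) and gld-1(q485), mutations that together keep germ cells dividing in place of normal meiosis. In the 5 GLP-1 ON libraries the germline Notch receptor gene glp-1 carried ar202, a gain-of-function allele, and in the 5 GLP-1 OFF libraries it carried q175, a null allele. A difference between the groups is therefore one between tumours with and without GLP-1 signalling, and not one between normal germlines.

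Actin polymerises into filaments that drive cell division, cell shape and, with myosin, contraction. Microtubules are built from dimers of 1 alpha- and 1 beta-tubulin and form the mitotic spindle. Worms have several near-identical actin genes, used in muscle and in non-muscle cells, while act-5 encodes the actin of intestinal microvilli. Of the larger tubulin families, tba-1, tba-2, tbb-1 and tbb-2 serve the germline and the early embryo, where the members of each pair can largely replace each other, and most other isotypes belong to neurons and other differentiated cells. The severing enzyme katanin of oocyte meiosis acts preferentially on microtubules containing TBB-2.

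The libraries held 17472638 to 38455208 reads in genes, and rRNA genes took 40.1% to 49.6% of the reads in ON and 39.0% to 50.8% in OFF. The targeted gene glp-1 was at 248 ± 28.2 CPM in ON tumours, against 88.2 ± 13.5 CPM in OFF tumours (SD, n = 5 each), where CPM is the authors' count per gene scaled to a common library total. The libraries fall into 3 runs of library numbers, 56 to 58 (1 ON, 2 OFF), 85 to 88 (1 ON, 2 OFF) and 127 to 130 (3 ON, 1 OFF), and values within each run are given below. The labels do not say what a run shares. The series' design text calls the replicates biological without naming cultures or animals, and the libraries of a group differed from each other by far more than counting noise.

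In these tumours the actin and tubulin genes were dominated by 5 transcripts. On the scale of mean CPM per kb of exon over all 10 libraries, tbb-2 stood at 444, tba-2 at 441, act-2 at 331, tba-1 at 247 and tbb-1 at 201, followed by act-3 at 24.3, act-1 at 20.1, act-4 at 2.66 and act-5 at 0.186 CPM per kb. Each gene from tba-2 down lay above the next in all 10 libraries. The first place alone changed hands, since tba-2 was above tbb-2 in all 5 ON libraries and below it in all 5 OFF libraries, at 502 and 474 CPM per kb in ON and 381 and 414 CPM per kb in OFF for tba-2 and tbb-2. The lengths behind these levels are those of the current Ensembl gene models, and the order of tba-2 and tbb-2 is close enough to depend on them.

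**Figure D1:**
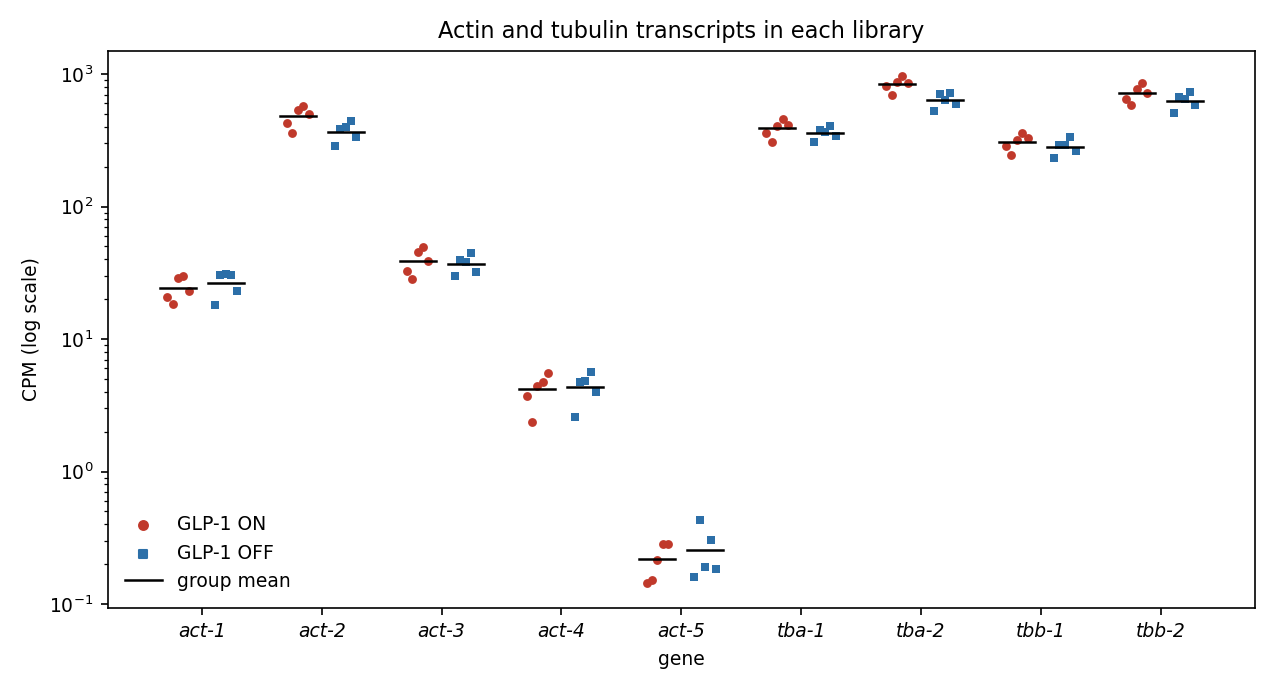
CPM of the 9 genes (log axis) in each library, with GLP-1 ON as circles and GLP-1 OFF as squares and a line at each group mean (n = 5 each). The genes span levels from 0.145 CPM for act-5 to 965 CPM for tba-2, and the groups overlap for every gene.

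The question for each gene was whether its transcript level differed between ON and OFF. Of the 9 genes, 8 passed the filter of at least 1 CPM in at least 5 libraries and were tested by limma on log2(CPM + 1) together with all other genes. The alpha-tubulin gene tba-2 rose in ON, and no other member passed the threshold of an adjusted p under 0.05. Over all 6833 tested genes, 6.70% were called higher and 12.4% lower in ON, or 19.1% in either direction. The CPM ranges of ON and OFF overlapped for all 9 genes, while they did not overlap for 14.9% of tested genes, 5.01% with ON higher and 9.92% with ON lower. The median log2 difference of the 8 tested members was 0.11, against -0.05 for all tested genes.

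Among the tubulins, tba-2 (chromosome I, 12964674 to 12966795, minus strand, here and below in Ensembl's WBcel235 build) had 812, 698, 874, 965 and 856 CPM in ON replicates 1 to 5, against 525, 708, 633, 724 and 599 CPM in OFF replicates 1 to 5. ON replicates 1, 3, 4 and 5 were above every OFF library, and ON replicate 2 lay within the OFF range. The means were 841 ± 97.6 CPM in ON tumours, against 638 ± 81.4 CPM in OFF tumours (SD, n = 5 each), a ratio of 1.32 and a log2 difference of 0.40 ± 0.11 (SE; limma adjusted p = 0.0146). The difference was 0.41, 0.04 and 0.58 within the 3 runs of library numbers. With the run as a term of the model it was 0.36 with a limma adjusted p of 0.0763, so the call was lost, while TMM scaling with the same term gave 0.41 with an adjusted p of 8.9e-04.

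Its partner gene tba-1 (chromosome I, 9785781 to 9787624, minus strand) had 361, 308, 407, 456 and 413 CPM in ON, against 307, 381, 362, 408 and 341 CPM in OFF. The groups ran through almost the same range. The means were 389 ± 56.4 CPM in ON tumours, against 360.0 ± 38.3 CPM in OFF tumours (± SD over 5 libraries). The log2 difference of 0.11 ± 0.11 did not pass the test (SE; limma adjusted p = 0.569). The members of each tubulin pair are similar in coding sequence, and how reads matching both were counted is not known here.

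The beta-tubulin gene tbb-2 (chromosome III, 4015910 to 4017627, minus strand) had 652, 579, 776, 859 and 719 CPM in ON, against 506, 671, 643, 732 and 584 CPM in OFF. The 2 highest libraries were ON replicates 3 and 4, and the lowest was OFF replicate 1. The means were 717 ± 108 CPM in ON tumours, against 627 ± 86.2 CPM in OFF tumours (± SD over 5 libraries), a log2 difference of 0.19 ± 0.12 (SE; limma adjusted p = 0.297).

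For tbb-1 (chromosome III, 10740868 to 10742432, minus strand) the levels were 287, 243, 318, 361.5 and 331 CPM in ON, against 231, 293, 291, 334 and 264 CPM in OFF. The groups overlapped over most of their range. The means were 308 ± 45.1 CPM in ON tumours, against 283 ± 38.5 CPM in OFF tumours (± SD over 5 libraries), a log2 difference of 0.12 ± 0.12 (SE; limma adjusted p = 0.524).

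Among the actins, act-2 was the main transcript and lay close to the threshold. It is 1 of 3 actin genes within 10.7 kb of chromosome V, at 11076777 to 11078154 on the minus strand, between act-3 (11071690 to 11074498, minus strand) and act-1 (11081052 to 11082415, plus strand). Its levels were 431, 359, 532, 577 and 498 CPM in ON, against 285, 382, 398, 439 and 336 CPM in OFF. ON replicates 3, 4 and 5 were above every OFF library, and ON replicates 1 and 2 lay within the OFF range. The means were 479 ± 85.8 CPM in ON tumours, against 368 ± 59.4 CPM in OFF tumours (± SD over 5 libraries), a ratio of 1.303 and a log2 difference of 0.38 ± 0.13 (SE; limma adjusted p = 0.0514). Within the runs of library numbers the difference was 0.38, -0.22 and 0.67, and with the run as a term it was 0.29 (limma adjusted p = 0.202).

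The neighbouring copies act-1 and act-3 were about an order of magnitude lower and close in both groups. For act-1 the levels were 20.6, 18.5, 28.9, 29.8 and 22.9 CPM in ON, against 18.04, 30.6, 30.8, 30.5 and 23.2 CPM in OFF. For act-3 they were 32.4, 28.4, 45.4, 49.2 and 38.8 CPM in ON, against 30.1, 39.2, 38.4, 44.9 and 32.05 CPM in OFF. The 3 highest act-1 libraries were OFF libraries and the 2 highest act-3 libraries were ON libraries, but neither gene passed the test. The act-1 log2 difference was -0.13 ± 0.15 (SE; limma adjusted p = 0.596), and that of act-3 was 0.06 ± 0.14 (adjusted p = 0.821). How reads matching several genes were counted is not given in the sources used here, so the split of reads between act-1, act-2 and act-3 is uncertain. The deposited table itself lists act-1 and act-3 on 2 rows each, under the same 2 Entrez gene numbers. Short non-coding genes that lie antisense within act-1 and act-3 were at 0 CPM in every library.

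The muscle-expressed actin gene act-4 (X, 4960621 to 4964413, plus strand) had 3.75, 2.36, 4.43, 4.74 and 5.58 CPM in ON, against 2.56, 4.78, 4.83, 5.66 and 3.97 CPM in OFF, from 48 to 215 reads per library. Lowest were ON replicate 2 and OFF replicate 1, the libraries with the highest rRNA share of their groups, 49.6% and 50.8%. Its log2 difference was -0.06 ± 0.17 (SE; limma adjusted p = 0.861). The microvillar actin gene act-5 (III, 13604412 to 13606066, minus strand) was not tested, as all libraries had under 1 CPM and 3 to 11 reads. Its level was 0.145, 0.152, 0.216, 0.286 and 0.286 CPM in ON, against 0.160, 0.434, 0.192, 0.307 and 0.184 CPM in OFF. In all, 32 reads in ON gave 0.218 CPM (95% exact Poisson interval 0.149 to 0.308) and 31 reads in OFF gave 0.261 CPM (0.177 to 0.370), with intervals that cover counting error only, so a difference was not detectable at this depth.

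The calls depended on how libraries were put on a common scale. Scaling by TMM moved all genes by a median of 0.04 on the log2 scale and called 3 of the 8 members higher and 0 lower, where 16.5% of 6839 genes were called higher and 34.8% in either direction. These were tba-2 (log2 difference 0.44, limma adjusted p = 1.1e-04), act-2 (0.42, adjusted p = 0.0048) and tbb-2 (0.23, adjusted p = 0.0293). Their standard errors were also smaller than with CPM as deposited. They fell from 0.11 to 0.060 for tba-2, from 0.13 to 0.096 for act-2 and from 0.12 to 0.076 for tbb-2. The edgeR quasi-likelihood test on whole reads called the same 3 genes, with adjusted p-values of 2.7e-04 for tba-2, 0.0052 for act-2 and 0.0385 for tbb-2, where 16.8% of 6833 genes were called higher and 34.9% in either direction. With rRNA genes left out of the total, tba-2 and act-2 were called (limma adjusted p = 2.4e-04 and 0.0033) and tbb-2 was not (adjusted p = 0.0555). With TMM scaling, leaving out each library in turn kept tba-2 and act-2 called in all 10 fits and tbb-2 in 5 of 10. With TMM scaling and the run of library numbers as a term, act-2 kept its call (0.35, limma adjusted p = 0.0139) and tbb-2 lost it (0.18, adjusted p = 0.0878).

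**Figure D2:**
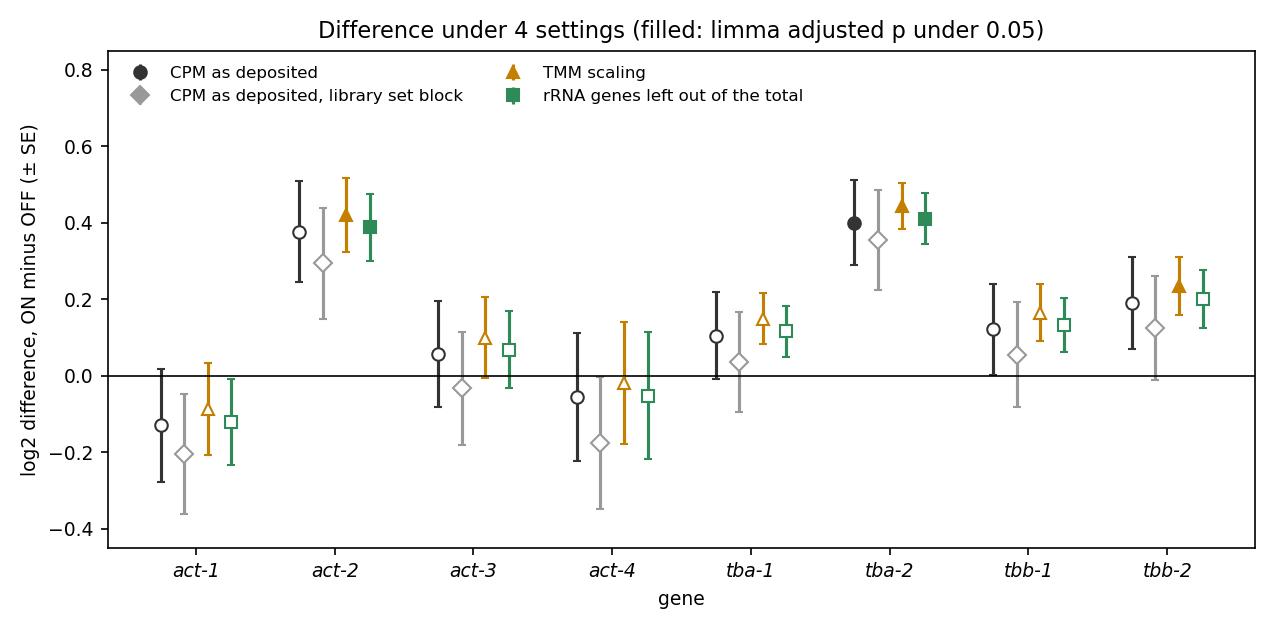
Log2 difference, ON minus OFF, of the 8 tested genes with its standard error under 4 settings, with filled symbols where the limma adjusted p was under 0.05. The genes tba-2 and act-2 have the highest values under every setting shown, from 0.36 to 0.44 for tba-2 and from 0.29 to 0.42 for act-2.

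Library runs differed in rRNA share as well as in the genes' differences. In the run 56 to 58, ON replicate 1 had 46.6% rRNA against 50.8% and 39.0% in OFF replicates 1 and 2, and act-1, act-3 and act-5 were lower in ON. In the run 85 to 88, ON replicate 2 had 49.6% rRNA against 41.1% and 41.3% in OFF replicates 3 and 4, and all members except tba-2 were lower in ON. In the run 127 to 130 the order was the other way, with 43.6%, 40.1% and 42.9% rRNA in ON replicates 3, 4 and 5 against 48.1% in OFF replicate 5, and all 9 genes were higher in ON. With rRNA genes left out of the total, tba-2 differed by 0.45, 0.27 and 0.43 and act-2 by 0.42, 0.0037 and 0.51 within the 3 runs. In the run 85 to 88 act-1, act-3 and act-4 were still lower in ON on that scale, by log2 differences of -0.49, -0.32 and -0.80. The part of the rRNA share in these differences was not tested.

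**Figure D3:**
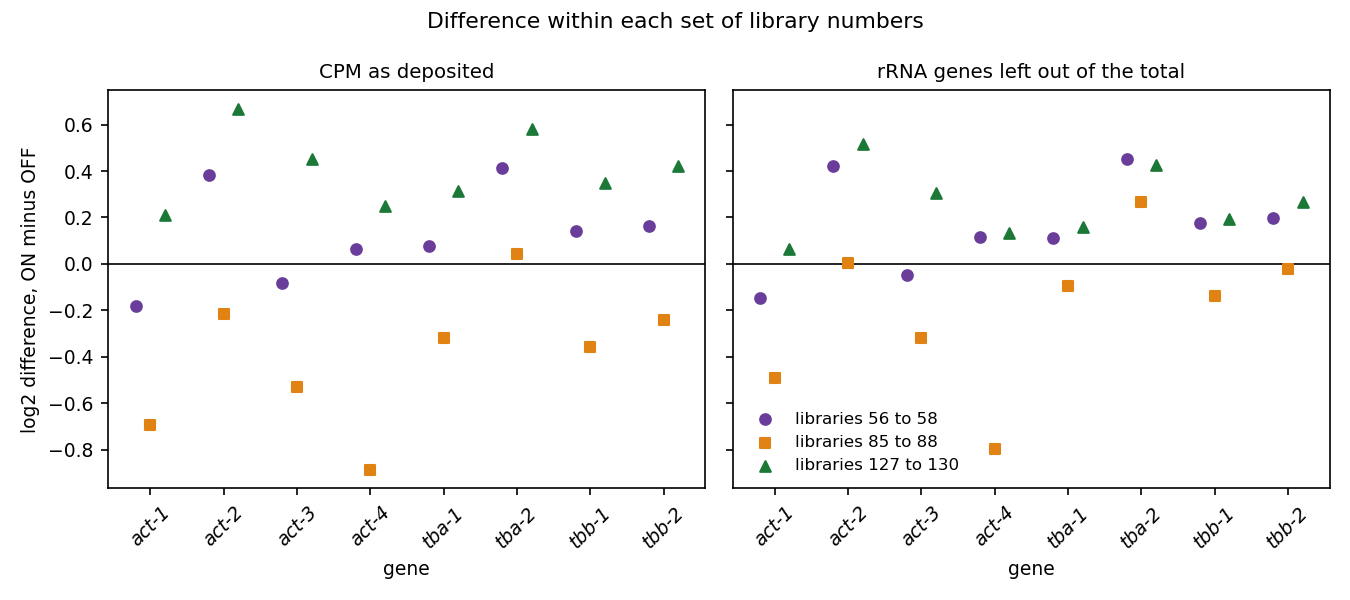
Log2 difference, ON minus OFF, of the 8 tested genes within each run of library numbers, with CPM as deposited on the left and rRNA genes left out of the total on the right. The gene tba-2 is above 0 in all 3 runs on both scales, and act-4 in the run 85 to 88 is the lowest point on both, at -0.89 and -0.80.

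Ratios of 2 genes within a library do not depend on library scaling, and asked whether the makeup of isotypes differed between ON and OFF. The 4 ratios tested were chosen with earlier results of these data known. The alpha-tubulin pool held more tba-2 in ON. The tba-1 to tba-2 ratio was 0.444, 0.441, 0.465, 0.472 and 0.483 in ON, against 0.585, 0.538, 0.572, 0.564 and 0.570 in OFF. Every ON library lay below every OFF library, with means of 0.461 ± 0.0179 in ON and 0.566 ± 0.0173 in OFF (± SD over 5 libraries). The log2 ratio differed by -0.30 (p = 0.00794 in a two-sided exact permutation test of the libraries, the lowest value possible here, and 0.0159 after adjustment over the 4 ratios tested). As a share of the summed CPM of both genes, tba-2 made up 68.4 ± 0.840% in ON and 63.9 ± 0.711% in OFF (± SD over 5 libraries). Within the runs the log2 ratio differed by -0.34, -0.36 and -0.27.

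The beta-tubulin pool showed a smaller difference that did not pass the test. The tbb-1 to tbb-2 ratio was 0.440, 0.420, 0.409, 0.421 and 0.460 in ON, against 0.455, 0.437, 0.453, 0.457 and 0.452 in OFF. ON replicate 5 was the highest of all and ON replicates 2, 3 and 4 were the lowest. The log2 ratio differed by -0.07 (two-sided exact permutation p = 0.0873, also 0.0873 after adjustment over the 4 ratios). That the alpha-tubulin pair shifted and the beta-tubulin pair did not pass is no test of a difference between the pairs, which was not tested.

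The alpha-tubulin sum rose relative to the beta-tubulin sum. Among these genes tba-2 had the largest log2 difference, 0.40, against 0.11 for tba-1, 0.12 for tbb-1 and 0.19 for tbb-2. The rise is thus not one of both alpha-tubulin genes. This ratio shares tba-2 with the tba-1 to tba-2 ratio, so their tests are not independent. The ratio of the summed CPM of tba-1 and tba-2 to that of tbb-1 and tbb-2 was 1.25, 1.22, 1.17, 1.16 and 1.21 in ON, against 1.13, 1.13, 1.07, 1.06 and 1.11 in OFF. All ON libraries were above all OFF libraries, with means of 1.203 ± 0.0359 in ON and 1.099 ± 0.0335 in OFF (± SD over 5 libraries). The log2 ratio differed by 0.13 (two-sided exact permutation p = 0.00794, again the lowest possible, and 0.0159 after adjustment over the 4 ratios), and by 0.15, 0.20 and 0.09 within the runs.

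**Figure D4:**
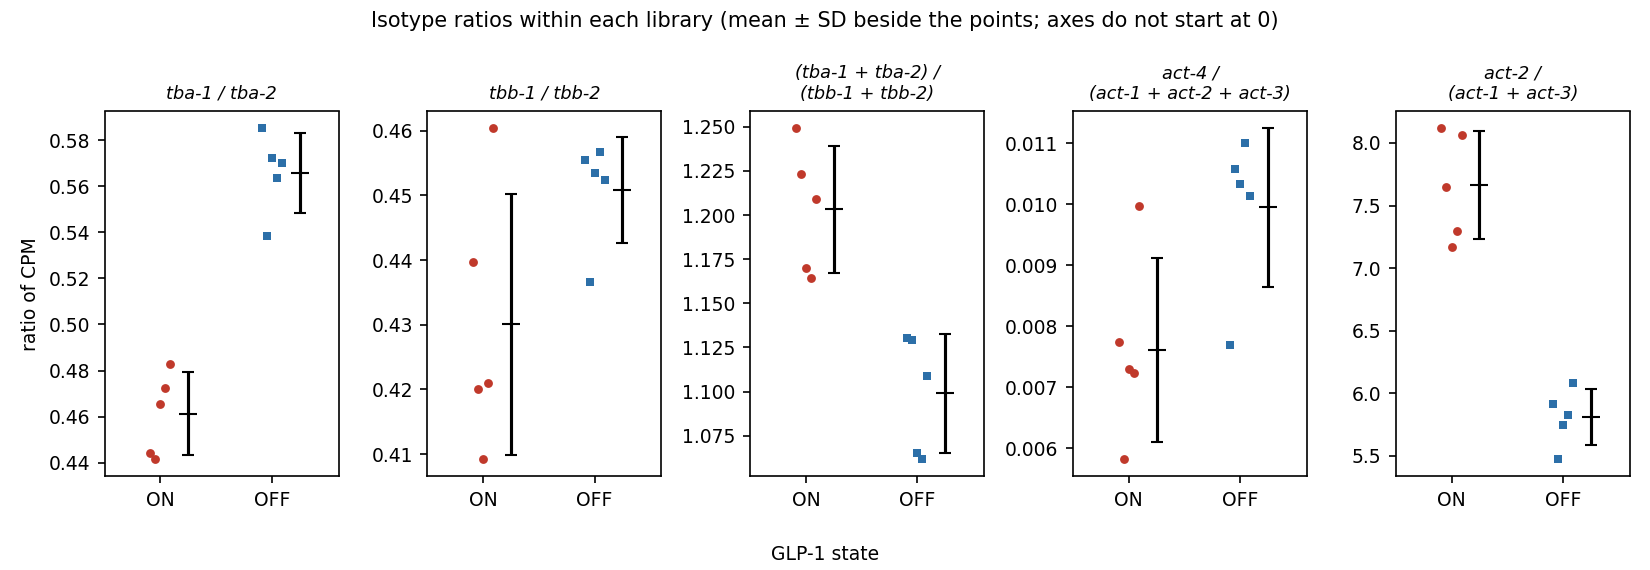
Ratios of CPM within each library, with GLP-1 ON as circles left of GLP-1 OFF as squares and the mean ± SD beside them (n = 5 each, axes not from 0). The groups do not overlap for tba-1 over tba-2 (0.441 to 0.483 in ON, 0.538 to 0.585 in OFF), for alpha- over beta-tubulin or for act-2 over act-1 and act-3, and they overlap for the other 2 ratios.

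In the actin pool act-4 fell relative to the sum of act-1, act-2 and act-3, while its own level did not pass the test. That sum was mainly act-2, which made up 87.7% of the summed actin CPM in ON and 84.4% in OFF. The log2 difference of act-2 alone was 0.38, against -0.06 for act-4, -0.13 for act-1 and 0.06 for act-3. The ratio therefore does not show a fall of act-4 relative to act-1 or act-3. The ratio of act-4 to the sum of act-1, act-2 and act-3 was 0.00775, 0.00582, 0.00730, 0.00723 and 0.00997 in ON, against 0.00770, 0.0106, 0.0103, 0.0110 and 0.0101 in OFF. OFF replicate 1 lay among the ON libraries and ON replicate 5 close to the other OFF libraries. The log2 ratio differed by -0.40 (two-sided exact permutation p = 0.0238, and 0.0317 after adjustment over the 4 ratios). On leaving out 1 library at a time the call was lost 8 times, at an exact permutation p of 0.0556 to 0.0635, and it held only without ON replicate 5 or without OFF replicate 1.

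In the reads as counted, the makeup of the chromosome V actin cluster also differed between the groups. How reads matching several of its genes were counted is not known, so the split between act-1, act-2 and act-3 is uncertain. The ratio used here was chosen after its values were seen and has no test. The ratio of act-2 to the sum of act-1 and act-3 was 8.12, 7.65, 7.17, 7.30 and 8.07 in ON, against 5.91, 5.47, 5.75, 5.83 and 6.08 in OFF. The groups did not overlap, and the means were 7.66 ± 0.432 in ON and 5.81 ± 0.225 in OFF (± SD over 5 libraries). Set against each copy alone, act-2 was 19.96 ± 1.31 times act-1 in ON and 14.0 ± 1.32 times in OFF, and 12.4 ± 0.697 times act-3 in ON and 9.96 ± 0.436 times in OFF. Of the summed actin CPM, act-2 made up 87.7 ± 0.521% in ON and 84.4 ± 0.549% in OFF, act-1 4.41 ± 0.265% in ON and 6.06 ± 0.538% in OFF, and act-3 7.07 ± 0.356% in ON and 8.48 ± 0.363% in OFF. The log2 ratio of act-2 to act-1 and act-3 differed by 0.51, 0.40 and 0.30 within the runs of library numbers.

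Muscle and gonadal sheath transcripts come with cells that also use actin genes of this cluster. In CPM, not corrected for gene length, each list summed to a level far below act-2. The sums were of the order of the single genes act-1 and act-3, and above act-4. No single body wall muscle gene was above 6.74 CPM on average in ON (unc-22) or 8.21 CPM in OFF (unc-54). For comparison, act-1 averaged 24.1 CPM in ON and 26.6 CPM in OFF, act-3 38.9 and 36.9 CPM, and act-4 4.17 and 4.36 CPM. Of 20 body wall muscle genes 12 were tested, 1 fell and 0 rose, where 12.4% of all tested genes fell. A positive log2 difference was seen in 1 of the 12, and their median was -0.18 against -0.05 for all tested genes. The troponin T gene mup-2 was at 2.98 ± 0.900 CPM in ON tumours, against 4.45 ± 0.469 CPM in OFF tumours (± SD over 5 libraries; limma adjusted p = 0.0126). The muscle myosin gene unc-54 was at 6.42 ± 3.25 CPM in ON tumours, against 8.21 ± 2.13 CPM in OFF tumours, without a call. The summed level of the list ran from 26.5 to 59.2 CPM in ON and from 33.3 to 49.01 CPM in OFF, and none of the 20 genes was at 0 in all libraries. Of 12 sheath and spermatheca genes with a row, 5 were tested, 1 fell and 0 rose (3 were lower after TMM scaling, where 18.3% of all genes were), with summed levels of 32.8 to 42.6 CPM in ON and 39.1 to 56.2 CPM in OFF. That call was lim-7, a transcription factor of sheath cells, at 1.15 ± 0.190 CPM in ON tumours, against 1.77 ± 0.333 CPM in OFF tumours (limma adjusted p = 0.0331). Of the 5 tested sheath and spermatheca genes 0 had a positive log2 difference, and their median was -0.28. The highest of that list was inx-8, at 22.4 CPM on average in ON and 28.1 CPM in OFF, without a call. The part of these cells in the act-1, act-3 and act-4 levels was not tested, and in bulk tissue fewer cells of a type cannot be told apart from less RNA per cell.

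Summed over each family, transcripts were higher in ON on average, and the groups overlapped. Actin summed to 547 ± 100.1 CPM in ON tumours, against 436 ± 71.9 CPM in OFF tumours, alpha-tubulin to 1230 ± 153 CPM in ON tumours, against 998 ± 119.3 CPM in OFF tumours, and beta-tubulin to 1025 ± 151.7 CPM in ON tumours, against 910 ± 124 CPM in OFF tumours (± SD over 5 libraries). The ratios of means were 1.25, 1.23 and 1.13, given without a test. With rRNA genes left out of the total, the alpha-tubulin sum ran from 2000 to 2378 CPM in ON and from 1693 to 1933 CPM in OFF, without overlap.

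Other alpha-tubulin genes were barely detected. All 7 other alpha-tubulin genes, including the touch neuron gene mec-12, were under 1 CPM in every library and together summed to 0.324 to 0.960 CPM in ON and 0.374 to 0.958 CPM in OFF. Of 4 other beta-tubulin genes only ben-1, the target of benzimidazole drugs, was tested. It was at 12.2 CPM in ON tumours, against 14.4 CPM in OFF tumours on average, without a call (log2 difference -0.22, limma adjusted p = 0.108). The touch neuron gene mec-7 stayed at or under 0.0682 CPM. The gene tbb-6 ran from 0.255 to 1.24 CPM in ON and from 0.345 to 7.64 CPM in OFF, with medians of 0.534 CPM in ON and 0.374 CPM in OFF. The gamma-tubulin gene tbg-1, whose product nucleates microtubules, was at 89.7 ± 3.25 CPM in ON tumours, against 83.4 ± 9.93 CPM in OFF tumours. It did not pass (limma adjusted p = 0.458), nor did its complex partners gip-1, gip-2 and mzt-1, while tbg-1 was called after TMM scaling (adjusted p = 0.0212). Of the 5 actin-related genes arx-1, arx-2, arp-1, arp-6 and arp-11, 0 were called, where 19.1% of all tested genes were. After TMM scaling 2 were higher and 1 was lower, beside 16.5% and 18.3% of all genes tested on that scale.

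Of 39 listed genes that regulate actin filaments, 32 were tested, 2 rose and 5 fell, where 6.70% and 12.4% of all tested genes did, with a median log2 difference of -0.13 against -0.05 for all tested genes. After TMM scaling 4 of 31 were higher and 8 lower, beside 16.5% and 18.3% of all genes tested on that scale. The cyclase-associated protein gene cas-1, which recycles actin monomers, rose to 9.58 ± 2.26 CPM in ON, against 4.84 ± 0.977 CPM in OFF without overlap (± SD over 5 libraries; log2 difference 0.85, limma adjusted p = 1.6e-04). The capping protein gene cap-1 was at 47.1 ± 3.41 CPM in ON tumours, against 38.2 ± 5.27 CPM in OFF tumours (adjusted p = 0.0428 in limma). Falls were seen in the tropomyosin gene lev-11, at 1.90 ± 0.267 CPM in ON tumours, against 3.22 ± 0.951 CPM in OFF tumours (limma adjusted p = 0.0066), and the alpha-spectrin gene spc-1, at 1.89 ± 0.450 CPM in ON tumours, against 2.99 ± 0.526 CPM in OFF tumours (adjusted p = 0.0099). The plastin gene plst-1, the formin gene cyk-1 and the tropomodulin gene unc-94 also fell, by log2 differences of -0.34, -0.32 and -0.32 with limma adjusted p-values from 0.0438 to 0.0476. The filamin gene fln-1 was the most abundant of the list, at 1907 ± 285 CPM in ON tumours, against 1680 ± 302 CPM in OFF tumours, without a call.

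The counts for contractility, microtubule regulation and folding stand beside 19.1% of all tested genes called as deposited and 34.8% after TMM scaling. Of 17 tested actomyosin genes 0 were called (limma), and after TMM scaling 3 were higher and 0 lower. The non-muscle myosin gene nmy-2, which drives cytokinesis, was at 780 ± 99.1 CPM in ON tumours, against 724 ± 133 CPM in OFF tumours (limma adjusted p = 0.572). Of 32 tested microtubule regulators 1 rose and 0 fell, and 5 were higher and 3 lower after TMM scaling. That gene was cls-3, which encodes a CLASP microtubule stabiliser, at 60.8 ± 3.99 CPM in ON tumours, against 39.7 ± 5.96 CPM in OFF tumours without overlap (log2 difference 0.61, limma adjusted p = 2.7e-04). The dynein heavy chain gene dhc-1 was at 1225 ± 200.3 CPM in ON tumours, against 1239 ± 252.4 CPM in OFF tumours.

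Actin and tubulin reach their native fold through prefoldin, the chaperonin CCT and, for tubulin, dedicated cofactors. Of 18 tested folding genes 1 rose and 1 fell, with a median log2 difference of 0.03, and 4 were higher and 1 lower after TMM scaling. The prefoldin gene pfd-5 was at 64.4 ± 2.28 CPM in ON tumours, against 50.3 ± 4.52 CPM in OFF tumours (limma adjusted p = 0.0081), and the tubulin cofactor E gene tbce-1 was at 33.7 ± 0.484 CPM in ON tumours, against 40.8 ± 4.11 CPM in OFF tumours (adjusted p = 0.0453), both without overlap. Of the 8 CCT subunit genes 0 were called by limma as deposited, and cct-4 and cct-5 were higher after TMM scaling (adjusted p = 0.046 and 0.012). The most abundant was cct-5, at 477 ± 40.1 CPM in ON tumours, against 427 ± 44.9 CPM in OFF tumours (limma adjusted p = 0.296 as deposited).

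**Figure D5:**
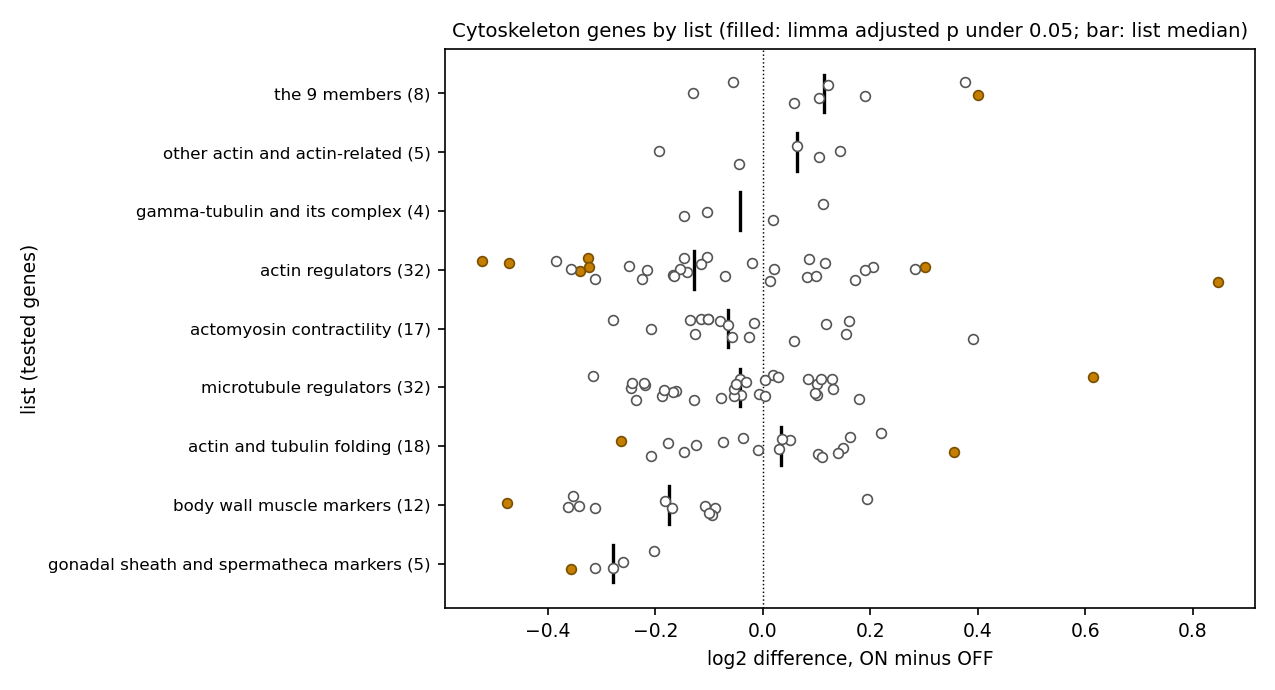
Log2 difference, ON minus OFF, of each tested gene by list, with the number tested in brackets, filled points at a limma adjusted p under 0.05 and a bar at each list's median. Over all tested genes 19.1% were called, and cas-1 at 0.85 and cls-3 at 0.61 are the highest points.

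The transcripts most like the 3 leading isotypes were looked up by Pearson correlation of log2(CPM + 1) over the 10 libraries, as a description without a test. For tba-2 they were hrpk-1, an hnRNP K-like RNA-binding protein gene, rps-5, of the small ribosomal subunit, and tkt-1, the transketolase gene, with r of 0.987, 0.987 and 0.986. For act-2 they were Y69A2AR.18, the anillin gene ani-3 and the HSC70 chaperone gene hsp-1, with r from 0.987 to 0.990. For tbb-2 they were BE0003N10.1, the isocitrate dehydrogenase gene idha-1 and the RNA-binding protein gene mex-3, with r from 0.987 to 0.991. Of these 9 genes, hsp-1 (log2 difference 0.55), tkt-1 (0.47) and hrpk-1 (0.34) rose in ON (limma adjusted p = 0.0199, 0.0072 and 0.0301). Within a library all genes share its total and its rRNA share, which enter such correlations. The r of deviations from the group means was 0.964 or higher for all 9. Among the members, tba-1 and tbb-1 had each other as the most like of all tested genes (r = 0.989), a pair singled out after its values were seen. The correlation of tba-1 with tba-2 was 0.809 over all libraries and 0.963 for deviations from the group means, and that of act-1 with act-2 was 0.563 and 0.943.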

How the data were processed

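Ribosome-depleted RNA was sequenced in 10 libraries, 5 per group by sample title. The submitters' processing notes name STAR 2.0.4b, Subread with featureCounts 1.4.5, edgeR and limma. The sources used here do not give the genome build, annotation release, strand use or handling of multi-mapped reads. The authors deposited 1 table whose signal is CPM. Its 46998 rows include 462 repeats of a gene with equal values, which lift the column sums above the CPM total. The tests are those for CPM. All values in each library (100%) were whole multiples of its lowest value above 0, within 0.01 read, giving 17472638 to 38455208 reads, so 1 read is worth 0.0260 to 0.0571 CPM.

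limma 3.58.1 (R 4.3.3, variance trend) was fitted on log2(CPM + 1) for the 6833 genes that reached 1 CPM in 5 or more libraries, with Benjamini-Hochberg adjustment over all of them. Differences are ON minus OFF and understate changes of genes near 1 CPM. Isotype ratios were tested by exact permutation of the libraries. The limma fit was tested on simulated counts with 200 genes changed by known amounts. It recovered 65.4% of changes of log2 0.5 and 96% of changes of log2 1, and 4.1% of its calls were false. The largest difference of a member as deposited was 0.40, for tba-2, so a missing call does not show that a member is unchanged. Alternatives included TMM (edgeR 4.0.16), DESeq2 1.42.0, other pseudocounts and filters, both blocks and leaving out each library. Coordinates and exon lengths are from Ensembl release 115 (WBcel235), matched by gene identifier. They do not show the authors' build. The members, lists and tests were chosen with earlier results of these data known. Named are all members, up to 5 genes per pathway list (called first by size, then by level), the 3 genes most like each leading or called member, and glp-1. Further list genes that complete a count were named after their values were seen.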

Additional observations from a re-analysis of the deposited data

Results flagged for a closer look

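In 2 of 28 groups of 5 libraries a single library stood apart from the other 4, and chance flags about 1 group in 20. The tbb-1 to tbb-2 ratio was 0.437 in OFF replicate 2, with the other 4 OFF libraries between 0.452 and 0.457. The ratio of act-4 to the sum of act-1, act-2 and act-3 was 0.00770 in OFF replicate 1, with the other 4 OFF libraries between 0.0101 and 0.0110.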

How the results depend on the processing

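The count of genes called higher in ON was 458, against 869 with rRNA genes left out of the total, 1131 with TMM scaling, 1223 with median-ratio scaling, 1145 with edgeR, 1323 with DESeq2 and 221 with a filter of 5 CPM. Genes called lower numbered 847, and 1343 with rRNA genes left out. Leaving out each library gave 303 to 620 higher and 585 to 1016 lower, with 303 without ON replicate 3. Of all calls, 35.1% were higher as deposited, 47.5% with TMM, 51.4% with median-ratio scaling and 52.2% with DESeq2.

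The replicate numbers were not taken as pairs. Each library's deviations from its group means were correlated over the tested genes, at -0.024 to 0.461 for same-numbered libraries. Even so, the deviations of ON replicates 1, 4 and 5 correlated best with those of the OFF library of the same number. Those of ON replicates 2 and 3 did not. A replicate block gave 517 higher and 1028 lower, and with TMM scaling 1427 higher and 1526 lower, when tba-1 and tbb-1 also passed (limma adjusted p = 0.0173 and 0.0119). TMM with the run of library numbers as a block, chosen after seeing the data like the other TMM blocks, gave 1012 higher. With the replicate block the log2 tba-1 to tba-2 ratio (-0.30) and alpha to beta ratio (0.13) had an exact p of 0.0625, the smallest 5 pairs allow, and the act-4 ratio (-0.40) had an exact p of 0.125. The act-2 difference (0.38) then passed with a limma adjusted p of 0.0206, but not with the run as a block (0.29, adjusted p = 0.202).

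Leaving out each library gave log2 ratios of -0.31 to -0.28 for tba-1 to tba-2, 0.12 to 0.14 for alpha to beta, -0.094 to -0.052 for tbb-1 to tbb-2, which passed without ON replicate 5 (-0.094, exact p = 0.0238), and -0.50 to -0.31 for act-4. As deposited, tba-2 stayed called in all 10 such fits (0.33 to 0.47) and lost its call without a filter (limma adjusted p = 0.0522). The act-2 difference (0.29 to 0.48) passed without ON replicate 2 (adjusted p = 0.0068) or OFF replicate 4 (0.0241). Uncalled differences changed sign for act-3 with the run of library numbers as a block (-0.033) and over left-out libraries (-0.034 to 0.16), and for act-4 over left-out libraries (-0.20 to 0.091). The causes of these changes were not tested. Depth limits act-5, with 3 to 11 reads per library.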

Other observations

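Markers of other tissues, listed because they could accompany dissected germlines, were at low levels. Pharyngeal muscle genes summed to 4.15 to 8.74 CPM in ON and 4.75 to 6.56 CPM in OFF, and 2 of 10 could be tested, without a call. Intestinal genes summed to 2.29 to 6.23 CPM in ON and 2.13 to 15.4 CPM in OFF, with 1 of 19 tested and without a call, beside an act-5 level of at most 0.434 CPM. Epidermal genes summed to 32.7 to 52.3 CPM in ON and 48.4 to 66.3 CPM in OFF. Most of this came from lin-26 (21.97 CPM on average in ON, 27.8 CPM in OFF) and nhr-23, and 12 of the 16 genes were under 1 CPM in every library. Of 3 tested, the nuclear receptor gene nhr-23 fell, at 17.6 ± 4.26 CPM in ON tumours, with 26.8 ± 3.99 CPM in OFF tumours (± SD over 5 libraries; limma adjusted p = 0.0033). Over all tested genes 12.4% fell. After TMM scaling 2 of the 3 were lower, nhr-23 and lin-26 (limma adjusted p = 0.0018 and 0.0093), beside 18.3% of all genes tested on that scale. Neuronal genes summed to 29.3 to 38.5 CPM in ON and 30.7 to 64.4 CPM in OFF, with 0 of 4 tested genes called by limma, as deposited or after TMM scaling. Most of this came from snb-1 (24.9 CPM on average in ON, 27.5 CPM in OFF), and in 1 OFF library unc-13 reached 24.1 CPM. Of 31 genes of the sperm cytoskeleton, 22 had no read in any library, and the list summed to at most 0.441 CPM in ON and 0.682 CPM in OFF.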
